A study of Mus musculus with 12 samples.

Results

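The miRNAs described here are those best known from skeletal muscle and heart (miR-1, miR-133a, miR-133b, miR-206, miR-208 and miR-499) and from liver (miR-122), measured in pancreatic islets. They were chosen by name: every assay of a panel whose name, without species prefix and strand ending, was 1 of these 7, with starred strands left out. This gave 8 assays for the 7 names, of 750 miRNA assays on the panel, because miR-1 was assayed with a human and a rat design. All 8 were among the 566 miRNA assays with a ratio in the authors' deposited table.

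The islets came from male C57BL/6 mice aged 2 to 3 months whose dams received a low-protein diet (LP0.5) during gestation, and from males of the same strain and age whose dams received control diet. There were 6 LP0.5 and 6 Control samples. Islets of both groups were freed with collagenase, picked by hand and kept overnight in medium with 5 mM glucose before total RNA was extracted and measured by TaqMan real-time PCR. The labels do not say how many animals or litters stand behind a sample. The comparison asks how islet miRNAs of adult offspring differ with the diet of the dam.

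MiRNAs are short RNAs that lower the output of messenger RNAs they pair with, mainly through the seed, bases 2 to 8 from the 5′ end. In muscle the miR-1 and miR-133 genes lie in shared clusters and are switched on together by myogenic transcription factors. The miR-208 and miR-499 genes sit inside myosin heavy chain genes and are made with them, and miR-122 is the dominant miRNA of hepatocytes. None of the 7 is counted among the abundant miRNAs of endocrine islet cells.

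The mature sequences are shown because family membership and shared genes group the assays in what follows. Mouse sequences for 4 of the 7 names were taken from RefSeq (build GRCm38.p6), with the seed in capitals. The panel names carry no strand ending for these assays, and the strand shown is the one such a name commonly denotes. MiR-208b, a close relative with its own assay, is added for comparison.
miR-206-3p: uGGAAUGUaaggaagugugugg
miR-133b-3p: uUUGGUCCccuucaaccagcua
miR-499-5p: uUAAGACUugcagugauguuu
miR-208a-3p: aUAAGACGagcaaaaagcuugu
miR-208b-3p: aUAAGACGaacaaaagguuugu
The miR-206 strand lies at chr1:20679055-20679076 and the miR-133b strand at chr1:20682834-20682855, both on the plus strand and inside the noncoding gene Lincmd1. No other gene of the reference table lies between Mir206 and Mir133b. The miR-499 strand lies at chr2:155622893-155622913 on the plus strand inside Myh7b, and the miR-208a strand at chr14:54949072-54949093 on the minus strand inside Myh6, the gene of the adult cardiac myosin heavy chain in mice. The miR-208b strand lies at chr14:54975710-54975731 on the minus strand inside Myh7. MiR-208a and miR-208b have the same seed and share 19 of 22 bases by position, and miR-499 shares bases 2 to 7 with both. MiR-206 belongs to the seed family of miR-1, and miR-133b to that of miR-133a.

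The authors' deposited table holds 1 linear ratio per assay, headed as LP0.5 against Control, with no replicate values and no error. A ratio above 1 therefore means, by that heading, a higher level in LP0.5 islets. The heading is the only basis of this direction. The study is known for reporting miR-199a-3p as raised after the low-protein diet, while the authors' deposited table lists it at 0.422, on the opposite side. That report is not part of the labels, and 1 miRNA does not settle the direction. If the heading were turned round, each ratio would become its reciprocal. No p-value can be given for any ratio, and the number of samples in which an assay gave a signal was not analysed here. The panel was run as 2 assay sets, A and B, and within each set the ratios are relative to the small RNA U6. The other 4 small RNA controls (snoRNA135, snoRNA202, U87 and Y1) had 64 spots in all, with ratios between 0.133 and 1.91 and a median of 1.11. The SD of repeated spots of 1 such control within a set ranged from 0.03 to 0.32 on the log2 scale, apart from 1.05 for U87 in set B, where 1 spot was listed at 0.133. These SDs describe repeated spots of 1 assay and do not include the spread between animals. Different assays listed under 1 name could differ more, as given below for miR-1.

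The members did not move together. By the heading, miR-499 and miR-206 were listed far lower in LP0.5 than in Control islets, 1 of the pair of miR-1 assays and miR-133a about 2-fold higher, and the other 4 assays within 1.5-fold of 1. At least 1.5-fold from 1 were 4 of 8 member assays, 2 above and 2 below, against 35.3% of all miRNA assays on the panel with a ratio (18.6% above and 16.8% below). The share was lower in set A, which holds all members but miR-206: 40 above and 48 below of 304 assays. In set B it was 65 above and 47 below of 262. At least 2-fold from 1 were 3 of 8, 1 above and 2 below, against 24.2% of the panel (12.4% above and 11.8% below). With so few assays nothing particular to the members is read from these counts. The median ratio of the 8 assays was 0.874, beside 1.01 over all 566 miRNA assays. Of the 8, 3 were above 1 and 5 below, beside 288 above and 278 below on the whole panel.

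**Figure D1:**
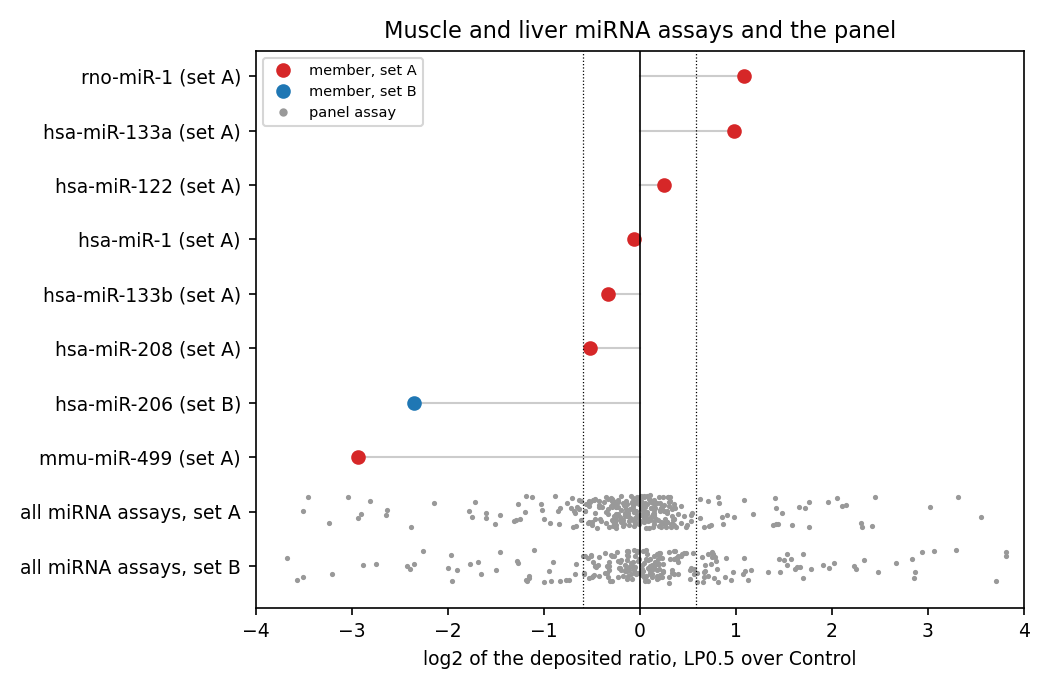
Log2 of the deposited ratio of LP0.5 over Control for the 8 member assays (large points, red for assay set A and blue for set B) and for all miRNA assays of each set (small grey points, spread vertically for visibility). Dotted lines mark 1.5-fold from 1; miR-499 at -2.93 and miR-206 at -2.35 lie far left of the rest, and 7 set A and 18 set B panel assays lie beyond the axis limits of 4 on either side.

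MiR-499, made together with the myosin gene Myh7b and tied to slow muscle fibres and heart, was listed lowest. The authors' deposited table gave it a ratio of 0.131, or -2.93 on the log2 scale, in assay set A. Only 22 of the 566 ratios on the panel were lower, and 7 of the 304 in its own set. A ratio at least 4-fold below 1 was listed for 6.18% of miRNA assays and one as far above 1 for 6.36%, so values of this size were not rare on the panel. Panel ratios ran from 0.000109 to 36300000, and those of set A from 0.0209 to 36300000. The part of assay background in the miR-499 ratio was not tested. Read with the heading turned round, the ratio would be 7.62.

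MiR-208, tied to heart muscle, shares bases 2 to 7 with miR-499 but was listed much nearer to 1. Its ratio in the authors' deposited table was 0.701, which is 5.34-fold above that of miR-499, and 108 panel ratios were lower. The assay of miR-208b, which has the seed printed above for miR-208a, has no ratio in the authors' deposited table, so the 2 relatives could not be set side by side.

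MiR-206, the skeletal muscle member of the miR-1 seed family, was the second lowest. Its ratio in the authors' deposited table was 0.196, or -2.35 on the log2 scale, with 32 lower ratios on the panel and 19 lower among the 262 of set B, the only member in that set. Turned round, it would be 5.10. In the same set the plant miRNA ath-miR159a, a negative control that mice lack, was listed from 2.59 to 3.37 at its 8 spots in the authors' deposited table. In set A it was listed at 0.139 and 1.96. A single plant assay does not show to which side of 1 the background of another assay goes. The part of assay background in the miR-206 ratio was not tested.

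MiR-133b, which lies in the same noncoding gene as miR-206, had a ratio of 0.794 in the authors' deposited table, 4.05-fold above miR-206. Neighbouring genes with a shared host were thus both below 1 but far apart in size, and they were assayed in different sets. MiR-133a, the abundant muscle partner of miR-1, was on the other side of 1: the authors' deposited table listed it at 1.98, which is 2.49-fold above its seed relative miR-133b. It ranked 71st from the highest ratio of 566, and with the heading turned round it would be 0.505 and 71st from the lowest. Starred strands of miR-133a and miR-1 and an antisense assay named 1-2-AS carry no ratio in the authors' deposited table.

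MiR-1, the most abundant miRNA of heart and skeletal muscle, had 2 assays under its name, and their ratios differed. Whether the human and the rat design target the same bases was not checked, as no miR-1 sequence was at hand. The authors' deposited table listed the human design at 0.962 and the rat design at 2.12, a 2.21-fold difference, both in set A. Among 36 miRNA names on the panel with a pair of assays this was the 9th widest gap, and the median pair lay 1.38-fold apart. Averaged on the log2 scale the 2 designs give a ratio of 1.43, which describes 1 miRNA only if both read the same target. The rat design was close to miR-133a, 1.07-fold apart, whereas the human design lay 2.06-fold below it. Whether miR-1 moved with its cluster partner therefore depends on which assay is read, and which design matches mouse miR-1 was not checked.

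MiR-122, the hepatocyte miRNA and the only liver member, had a ratio of 1.19 in the authors' deposited table, with 168 higher ratios on the panel. It stayed between 0.992 and 1.22 when U6 was replaced by another reference, and was below 1 with snoRNA135 alone, so no direction is given for it. In bulk islet RNA, fewer cells of a type and less RNA per cell cannot be told apart, for this and every other member.

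In order from low to high the assays were miR-499, miR-206, miR-208, miR-133b, miR-1 (human design), miR-122, miR-133a and miR-1 (rat design). The widest gap between neighbours, 1.84 on the log2 scale, lay between miR-206 and miR-208. The next were those between miR-122 and miR-133a (0.74) and between miR-499 and miR-206 (0.58). The gap between miR-499 and miR-206, which lie in different assay sets, was 0.31 with Y1 and 1.04 with U87 as the reference. These 2 gaps are within the spread of the controls' own spots in set B, 0.32 for Y1 and 1.05 for U87. With snoRNA202, whose spot SDs were 0.06 in set A and 0.03 in set B, the gap was 0.68. MiR-206 stayed above miR-499 under each reference tried. The steps from miR-208 to miR-133b (0.18) and from miR-133a to the rat design of miR-1 (0.10) were no larger than the median SD of repeated control spots, 0.18. The steps from miR-133b to the human design of miR-1 (0.28) and from there to miR-122 (0.31) were within the 0.32 reached by Y1 in set B. These neighbours are not ordered beyond that spread. Spot SDs hold no difference between assays. The miR-1 designs lay 2.21-fold apart, farther than any neighbours in this order except miR-206 and miR-208 (3.57-fold). No firm order is therefore read from the narrower steps.

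The reference shifted the members but did not bring the far ones near 1. With the mean of snoRNA135, snoRNA202, U87 and Y1 in place of U6, ratios fell by 0.20 in set A and by 0.12 in set B on the log2 scale. Then 5 of 8 members were at least 1.5-fold from 1, 2 above and 3 below, beside 39.0% of the panel (16.1% above and 23.0% below); the panel's own split turned from 105 above and 95 below to 91 and 130. The added member was miR-208, at 0.611. Over the 8 references tried, U6 included, the ratio of miR-499 ran from 0.110 to 0.134 and that of miR-206 from 0.137 to 0.246. Over the same references miR-133a ran from 1.65 to 2.03 and the rat design of miR-1 from 1.77 to 2.17. MiR-208 ran from 0.585 to 0.718, and miR-133b from 0.662 to 0.813, passing 1.5-fold with snoRNA135 alone, where 6 of 8 members and 39.2% of the panel were at least 1.5-fold from 1. The human design of miR-1 remained below 1, from 0.803 to 0.985.

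**Figure D2:**
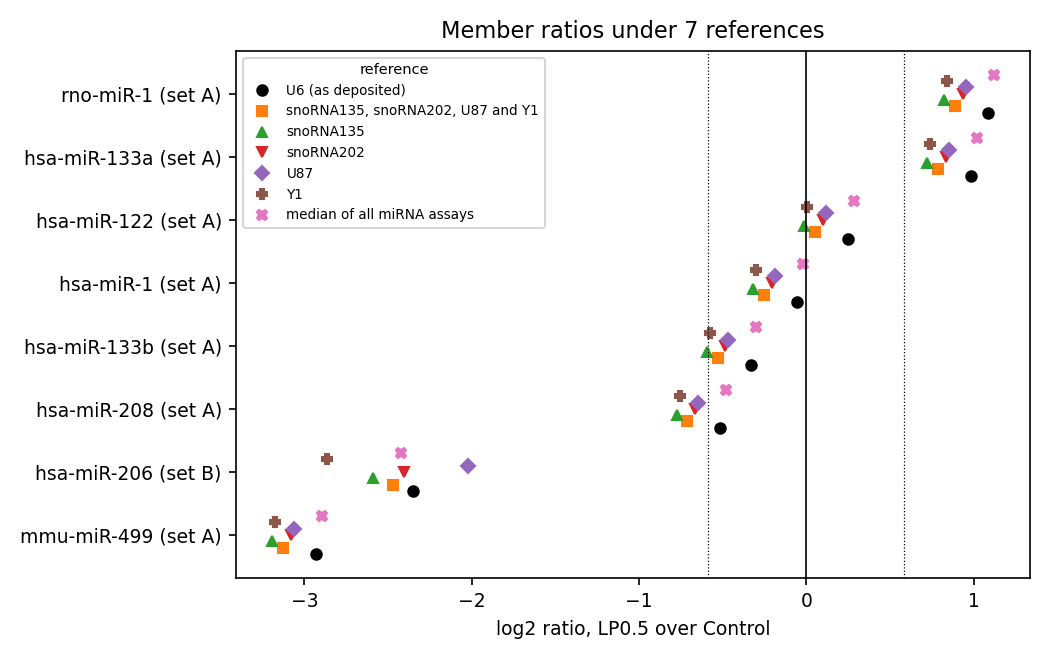
Log2 ratio of LP0.5 over Control for each member assay under 7 of the references (U6 as deposited, 5 sets of other small RNA controls, and the median of all miRNA assays of the set), 1 symbol per reference. Dotted lines mark 1.5-fold from 1; miR-499 and miR-206 stay left of the lower line and miR-133a and the rat design of miR-1 right of the upper line under each reference drawn, while miR-208 and, with snoRNA135, miR-133b cross the lower line and miR-122 crosses 0.

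Other miRNAs enriched in muscle or liver, where a ratio was listed, ran from 0.653 to 1.15. Of 3 other muscle-enriched assays, miR-208b had no ratio, and the authors' deposited table listed miR-486, also abundant in red blood cells, at 0.694 and miR-378 at 1.15. All 3 other liver-enriched assays were below 1: the authors' deposited table listed miR-192 at 0.895, its cluster partner miR-194 at 0.653 and miR-148a, which is abundant in exocrine pancreas too, at 0.946. As deposited, miR-194 was the only one of these at least 1.5-fold from 1, against 35.3% of the panel. With the other small RNA controls miR-486 was too, against 39.0%. MiR-122 was on the other side of 1 from all 3 as deposited.

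The islet marker assays of the list used here were close to 1. All 10 assays of 9 islet names had a ratio, between 0.744 and 1.45 with a median of 1.14. None was at least 1.5-fold from 1 as deposited, against 35.3% of the panel, and 1 was so, below 1, with the 4 other small RNA controls as the reference, against 39.0%. All but 1 assay of miR-200c were in set A, where the share as deposited was lower, 40 above and 48 below of 304. These counts depend on the names chosen: miR-7b, a relative of miR-7a outside the list, was at -0.93 on the log2 scale as deposited. Ratios between groups cannot check the tissue label: the levels of these markers, and of muscle or liver RNA relative to islet RNA, were not analysed here. The smooth muscle and mesenchyme assays, which mark vessel and connective tissue cells of an islet preparation, were spread as widely as the members: 7 assays from 0.190 to 2.66, with 2 at least 1.5-fold above and 3 below (18.6% and 16.8% on the panel), and 1 above and 3 below with the other controls (16.1% and 23.0%). The lowest of them was 1 of 2 assays of miR-143, listed at 0.190 in set B and 1.11 in set A in the authors' deposited table. The blood assays had 1 above and 1 below among 5 with a ratio, under both references. The acinar assays had 1 above and none below among 4, and 1 above and 1 below with the other controls. The acinar assay above was 1 of 2 of miR-217, at 1.83 in set A and 0.950 in set B in the authors' deposited table. The part of these cells in the member ratios was not tested.

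**Figure D3:**
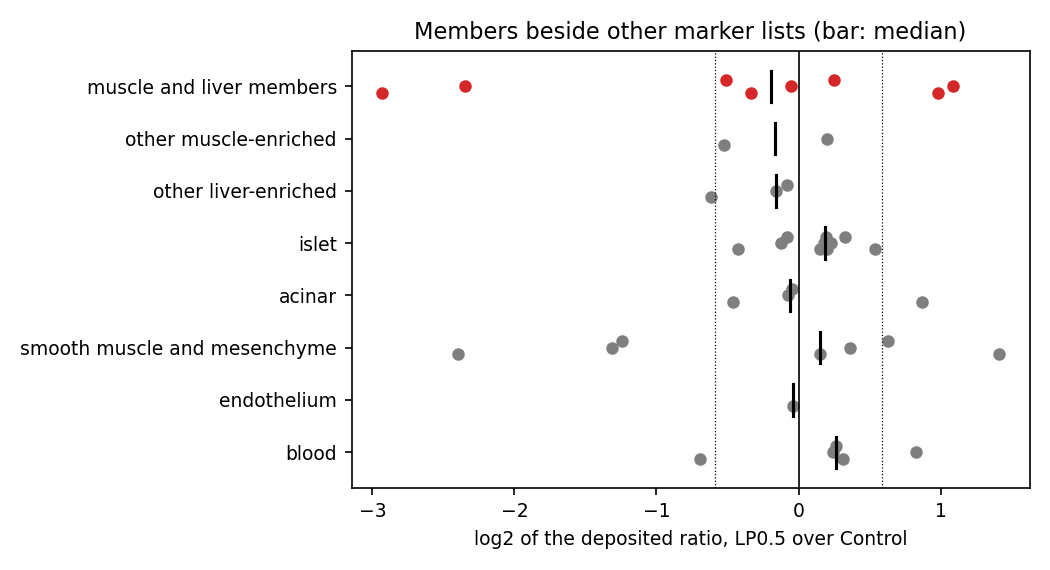
Log2 of the deposited ratio of LP0.5 over Control for the 8 member assays (top row, red) and for assays of other marker lists (grey), 1 point per assay with a ratio, offset vertically for visibility, with a black bar at each list's median. Dotted lines mark 1.5-fold from 1; the islet assays lie between them, while the members and the smooth muscle and mesenchyme assays reach beyond both.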

How the data were processed

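Per the labels, RNA was measured by TaqMan PCR with a FAM probe; the submitters' processing notes name limma without a version or a role. The authors deposited linear ratios (fold values) per spot, 1 for each of 846 spots with 190 blank, and per the file headers these are LP0.5 against Control. No source used here gives the detection limit or how samples were averaged; from the values, U6 is the reference, as the mean log2 ratio of its 8 spots is 0 in each set. A second deposited table names the spots; its 12 columns of per-sample values match no sample label and were used in no step, so the planned limma test, left-out samples and likeness across samples were not run.

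Ratios were turned to log2. Spots were split into sets A and B by block code. Another reference was set by subtracting its mean log2 ratio within a set. Members and lists were chosen with earlier results of these data known. Panel names were matched to lists without species prefix (dme-miR-7 for miR-7a, miR-199a for miR-199a-5p). Named miRNAs are all members, their near names, the list members, miR-7b and the controls. Pairs of assays are unstarred names with 2 assay numbers. The code was tested on simulated data. Python 3.11.15, numpy 2.4.6, pandas 2.3.3 and matplotlib 3.10.9 were used.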

Additional observations from a re-analysis of the deposited data

Results flagged for a closer look

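A ratio was listed where mice have no target: the plant negative control ath-miR159a had one at 10 of its 16 spots. Of these, 8 were in set B, which holds the miR-206 assay, and 2 in set A, which holds the other members. In set A the authors' deposited table gives these spots 0.139 and 1.96, too few and too far apart to set the member ratios against.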

How the results depend on the processing

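No paired analysis was possible because the per-sample columns match no sample label, and leaving out samples was not possible for the same reason. Of 56 member ratios under another reference, 54 moved by less than 0.276 on the log2 scale, the mean SD of repeated control spots. The other 2 were those of miR-206 with U87 (-2.02) and with Y1 (-2.87). That mean is raised by U87 in set B (1.05). With the median SD, 0.18, as the limit, set A shifts of up to 0.26 would count as moved. The 56 are not separate checks, since a reference subtracts 1 value from all assays of a set. The largest shift, 0.51 in set B with Y1, is less than 1.5-fold, so no ratio at least 1.5-fold from 1 could change sides. The count of member assays at least 1.5-fold from 1 was 4 (35.3% of the panel), was 3 at 2-fold (24.2%) and ran from 4 to 6 under other references, with 6 for snoRNA135 alone (39.2%). The median log2 ratio of -0.19 became 0.10 among the 6 assays within 4-fold of 1, by construction, since miR-499 and miR-206 are left out; it was -0.33 with 1 value per name and from -0.46 to -0.16 under other references. Starred strands have no ratio and changed nothing. The single controls and the panel median for counts and medians, and the reference without 1 U87 spot, were chosen after seeing the data. Without that spot the other controls give miR-206 a ratio of 0.169. Precision is limited by 1 ratio per assay with no sample values.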
